A study of Rattus norvegicus with 20 samples.

Results

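Heme synthesis was followed in rat whole blood through 9 genes: 7 of the enzymes of the pathway (Alas2, Alad, Uros, Urod, Cpox, Ppox and Fech) and 2 mitochondrial carriers of the same family (Slc25a38 and Slc25a39). The members were chosen by gene symbol, each symbol had a single row among the 32882 genes of the count table, and all 9 were among the 16734 genes that passed the filter on low counts. The rats were male wild-type Fischer 344 animals, 8 weeks old by the labels, and all of them ate the CSAA diet, a choline-sufficient amino acid-defined feed. The CSAA group received this feed alone. For 20 days the other groups had 1.2 g of resveratrol (CSAA+RSV), 1.34 g of pterostilbene (CSAA+PTS) or 1.9 g of chlorogenic acid (CSAA+CGA) in each kg of feed. The doses were set to be equal in moles. RNA of 5 rats per diet was sequenced from blood drawn behind the eye. CSAA+RSV Rat4, whose library held 861072 counts, was left out. The other 19 libraries held 24036703 to 36743103 counts, with a median of 32111022.

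Heme, the iron-containing ring that hemoglobin needs to bind oxygen, is built partly in mitochondria and partly in the cytosol. ALAS2, the erythroid form of the first enzyme, joins glycine with succinyl-CoA, and SLC25A38 is known from human, fish and yeast studies as a mitochondrial carrier that supplies this step with glycine. ALAD condenses the product in the cytosol, UROS and UROD shape the ring, CPOX and PPOX oxidise it, and FECH inserts iron in the mitochondrion. SLC25A39 is known from mouse and human cells as a carrier that brings glutathione into mitochondria. In blood these transcripts are expected mainly in reticulocytes, the young red cells that have lost the nucleus but still hold RNA. Because whole blood is a mixture, fewer reticulocytes and less RNA per reticulocyte cannot be told apart in these libraries. Red cell transcripts were plentiful: all 21 markers of a fixed red cell list that were in the table were detected in every rat, with Bnip3l, a mitophagy receptor that clears mitochondria from reticulocytes, the highest by its mean at 3808 to 8076 CPM and Gypc (glycophorin C) the lowest at 7.05 to 21.2 CPM.

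Sequence windows are shown for the first and the final enzyme, Alas2 and Fech, because these 2 of the 8 members with a RefSeq window hold the letters AGATAA, a form of the motif bound by the erythroid factor GATA1. Each window runs from 250 bases before to 50 bases after a RefSeq start in the GRCr8 assembly, is written 5′ to 3′ on the strand of the gene, and has AGATAA, or its reverse complement TTATCT, in capitals.
Alas2, chrX:22895200-22895499, plus strand: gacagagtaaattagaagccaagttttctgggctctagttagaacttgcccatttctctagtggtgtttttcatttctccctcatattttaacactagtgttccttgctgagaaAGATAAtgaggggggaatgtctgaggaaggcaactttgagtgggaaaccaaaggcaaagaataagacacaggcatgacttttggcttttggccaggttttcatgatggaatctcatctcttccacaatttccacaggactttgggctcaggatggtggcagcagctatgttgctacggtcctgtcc
Fech, chr18:60248476-60248775, minus strand: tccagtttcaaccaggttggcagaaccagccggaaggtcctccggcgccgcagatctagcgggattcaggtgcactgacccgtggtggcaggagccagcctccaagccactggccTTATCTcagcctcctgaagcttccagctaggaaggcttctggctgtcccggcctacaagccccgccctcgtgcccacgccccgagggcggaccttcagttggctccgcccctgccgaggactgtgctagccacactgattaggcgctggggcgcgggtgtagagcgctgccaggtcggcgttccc
The match begins 136 bases before the start in Alas2, on the strand of the gene, and 135 bases before it in Fech, on the opposite strand. The Alas2 start of the table lies inside the gene record and not at its end, so other starts of this gene are not covered by the window. Of 33469 windows of this length, 11.6% hold AGATAA on either strand, so a match is a description of the letters and not a binding site. CACGTG was in the windows of Alad and Urod (2 of 8 members, 6.42% of all windows) and CCGCCC in those of 6 of the 8 members (33.1% of all windows). Of the 9 members, Uros alone shares its position with another annotated gene, Bccip, and since the sources used here do not give the strand setting of the counting, some Uros counts may belong to that neighbour.

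The members covered a range of levels from among the highest in blood to a few CPM. Levels are given in CPM, counts relative to the library total scaled by TMM (a factor per library computed from the bulk of its genes), and, to compare genes, as CPM per kilobase of gene length, with mean ± SD over the 19 rats. Alas2 (ENSRNOG00000000167) stood at 9892 ± 2026, the 32nd highest of 16734 genes, and took a mean of 1.70% of all counts. Slc25a39 (ENSRNOG00000020994) followed at 2009 ± 552 and Fech (ENSRNOG00000018053) at 840 ± 171, so that these 3 genes held 98.8% of the counts of the members. Urod (ENSRNOG00000018211) was at 128 ± 29.5 and Slc25a38 (ENSRNOG00000018552) at 27.4 ± 6.45. The low end was formed by Alad (ENSRNOG00000015206) at 10.6 ± 2.83, Cpox (ENSRNOG00000001654) at 6.97 ± 0.946, Uros (ENSRNOG00000017810) at 3.70 ± 0.839 and Ppox (ENSRNOG00000003567) at 3.61 ± 0.705. Each gene was above the next in 19 of 19 rats, except that Alad exceeded Cpox in 17 of 19 and Uros exceeded Ppox in 9 of 19, so the last pair had no order. The highest mean was 2741-fold above the lowest. Depth limited the low members most: Uros had 120 to 246 counts and Ppox 127 to 263 counts per library, against 378887 to 644819 for Alas2. Beside the members, Alas1, the form of the first enzyme used outside red cells, stood at 4.14 ± 3.71 CPM per kilobase.

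**Figure D1:**
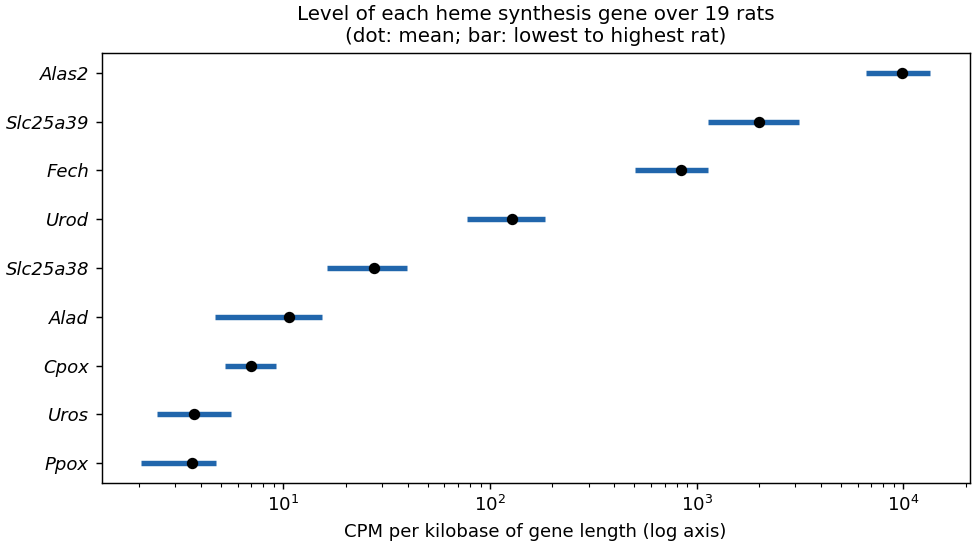
Level of each heme synthesis gene in CPM per kilobase of gene length on a log axis, with a dot for the mean and a bar from the lowest to the highest of 19 rats. Alas2 lies at 9892 and Ppox at 3.61, the bars of Alas2, Slc25a39, Fech, Urod and Slc25a38 do not meet, and those of Alad, Cpox, Uros and Ppox overlap with their neighbours.

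The question of the study was what each added compound does to gene expression in blood, and for the pathway the comparison of CSAA+PTS with CSAA found no member past the test. Alas2 stood at 16719, 18684, 22998, 14138 and 15631 CPM in CSAA Rat1 to Rat5 and at 13566, 23560, 20913, 18493 and 11559 CPM in CSAA+PTS Rat1 to Rat5. The CSAA+PTS rats thus held both the highest and the lowest Alas2 of the pair of diets, and the means were nearly equal (17618 ± 5001 against 17634 ± 3426 CPM, log2 fold change -0.00, SE 0.268, 95% interval -0.56 to 0.56, adjusted p = 0.999 by the edgeR quasi-likelihood test). By the same test, Alad was the member with the largest difference. It stood at 22.04, 26.5, 29.0, 16.5 and 21.9 CPM in the 5 CSAA rats and at 9.56, 27.3, 20.4, 16.3 and 8.74 CPM in the 5 CSAA+PTS rats. Of the CSAA+PTS rats 3 were below every CSAA rat, while Rat2 was above 4 of them. The log2 fold change of Alad was -0.50 (SE 0.243, 95% interval -1.01 to 0.01, edgeR fit over n = 19 rats, p = 0.0559, adjusted p = 0.656), which misses the threshold. The study, in a model that adds estimated cell type scores to diet, lists Alad among its differentially expressed genes. That model was not fitted here.

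The other members differed by less between CSAA+PTS and CSAA. Fech was at 2378 ± 529 against 2651 ± 507 CPM (log2 fold change -0.16, SE 0.221, adjusted p = 0.842) and Slc25a39 at 2956 ± 1258 against 3112 ± 735 CPM (-0.07, SE 0.277, adjusted p = 0.947). The glycine carrier Slc25a38 showed 52.4 ± 17.9 CPM, 54.7 ± 12.8 CPM in CSAA (-0.06, SE 0.226, edgeR adjusted p = 0.947). For the ring-building enzymes, the log2 fold change was -0.03 for Urod (SE 0.218, edgeR adjusted p = 0.971) and 0.02 for Uros (SE 0.206, adjusted p = 0.984). For the oxidases, it was 0.09 for Cpox (SE 0.131, edgeR adjusted p = 0.846) and -0.01 for Ppox (SE 0.194, adjusted p = 0.989). Cpox, the steadiest member, had the narrowest interval, -0.19 to 0.37, and the widest was that of Slc25a39, -0.65 to 0.51.

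In the main edgeR fit of CSAA+PTS against CSAA, no member was called at an adjusted p (0 of 9, beside 0% of all genes tested). None was under an unadjusted p of 0.05 (0 of 9, beside 7.58% of all genes). DESeq2 put no member past either threshold. It called 6 genes with 4 diets and 14 with 2 diets, with 8.21% and 7.18% of all genes under the unadjusted threshold. At an adjusted p limma called 26 genes and no member. With limma and sample weights, Alad alone passed the unadjusted threshold (log2 fold change -0.71, n = 19, p = 0.00199, adjusted p = 0.155), 1 of 9 members where 14.2% of all genes passed in that fit. The groups overlapped for all 9 members, where 1.39% of all genes had groups that did not. The log2 fold change was below 0 for 7 of 9 members, against 47.2% of all genes, but for 5 of 9 with DESeq2 size factors and for 1 of 9, Alad, when total counts alone set the scale, a setting that moved the median of all genes from 0.02 to 0.21. The median of the members was -0.03 under TMM. Over 23 other settings the log2 fold change of Alad ran from -0.72 to -0.31, with an unadjusted p under 0.05 in 7 of them, in which 5.01 to 14.2% of all genes were under it, and an adjusted p from 0.155 to 0.834. Without CSAA+PTS Rat1 it was -0.35, without CSAA+PTS Rat5 -0.33, without CSAA Rat3 -0.36 and without CSAA+PTS Rat2 -0.72 (edgeR adjusted p = 0.689, 0.565, 0.634 and 0.332).

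**Figure D2:**
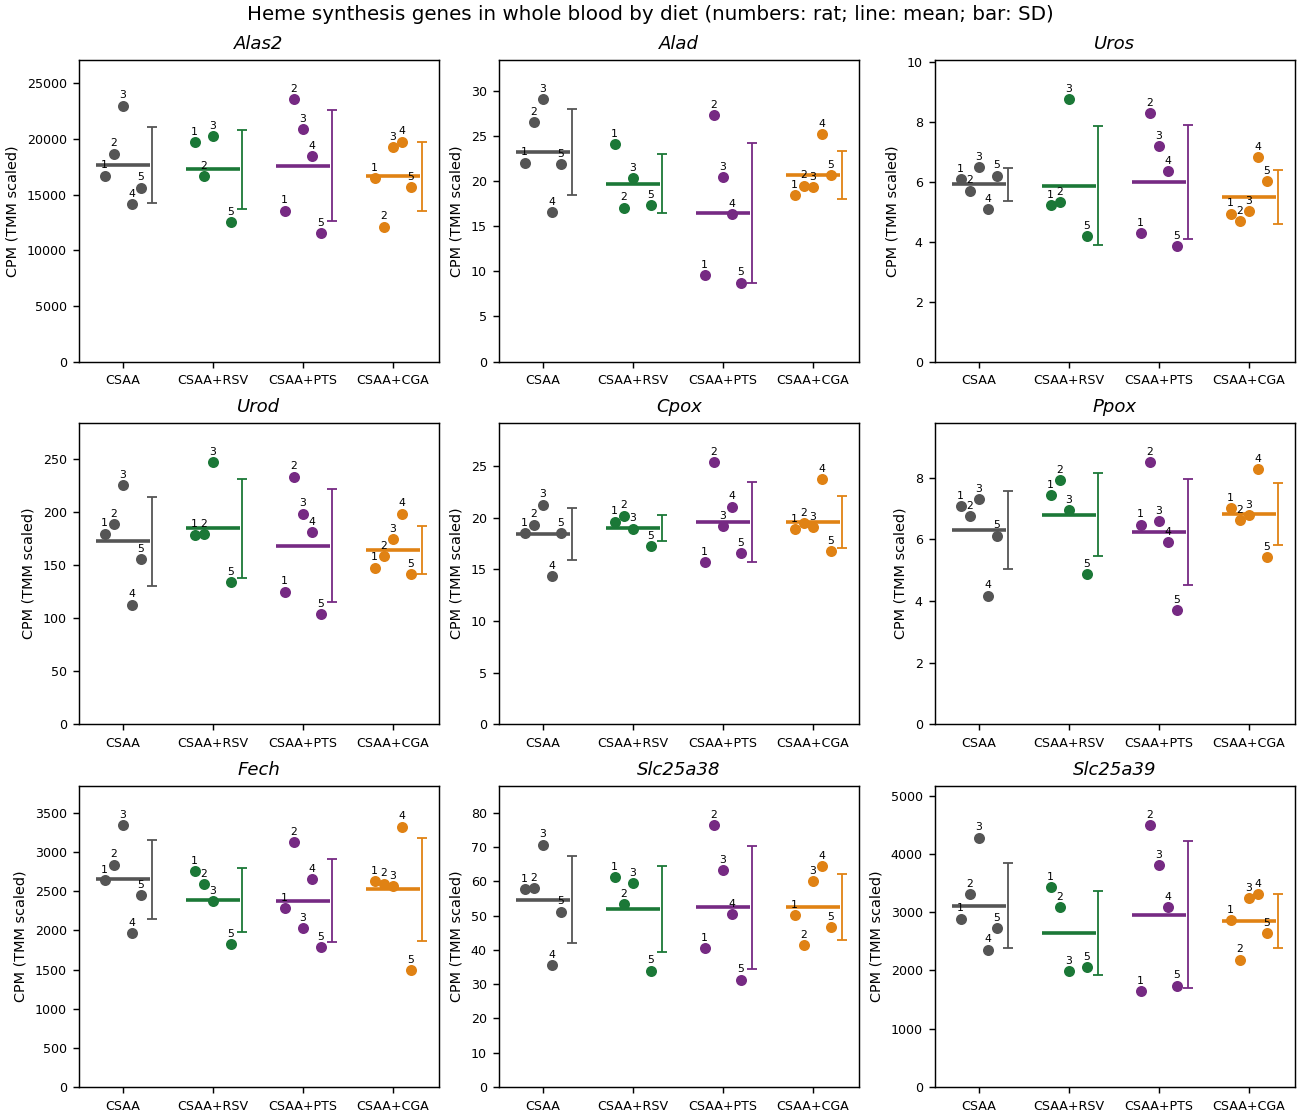
TMM-scaled CPM of the 9 members in each rat by diet, with axes from 0, the rat number above each point, a line at the mean and a bar of 1 SD. The diets overlap in every panel, and in the Alad panel CSAA+PTS Rat1 and Rat5 lie lowest at 9.56 and 8.74 CPM.

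With CSAA+RSV against CSAA, the members lay from a log2 fold change of -0.24 for Slc25a39 to 0.11 for Ppox, with a median of -0.03 beside 0.02 for all genes. No member was called at an adjusted p (0%, as for all genes) or at an unadjusted p under 0.05 (2.12% of all genes), and none had groups that did not overlap (0.741% of all genes). Slc25a39 stood at 3432, 3085, 1987 and 2060 CPM in CSAA+RSV Rat1, Rat2, Rat3 and Rat5, against 2358 to 4277 CPM in CSAA. Its interval was wide (-0.85 to 0.38, SE 0.295, edgeR adjusted p = 1.00), with 2 of the 4 rats below every CSAA rat. Urod and Uros had their highest value of all 19 rats in CSAA+RSV Rat3, at 247 and 8.76 CPM, where Slc25a39 was the lowest of that diet. Alad was at 19.7 ± 3.27 CPM with CSAA+RSV, between its means with CSAA+PTS and CSAA (log2 fold change -0.24 from CSAA, 95% interval -0.78 to 0.30, edgeR adjusted p = 1.00).

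With CSAA+CGA against CSAA, the members lay from -0.17 for Alad to 0.12 for Ppox, and their median was -0.07 beside -0.01 for all genes. No member was called at an adjusted p (0% of all genes) or at an unadjusted p under 0.05 (0.639% of all genes), and 0.239% of all genes, with no member among them, had groups that did not overlap. Alas2 was at 16653 ± 3092 CPM with CSAA+CGA, with a log2 fold change of -0.08 (95% interval -0.64 to 0.48, edgeR adjusted p = 1.00). Uros was below every CSAA rat in 3 of 5 CSAA+CGA rats, at 4.94, 4.69 and 5.02 CPM against 5.08 to 6.50 CPM, yet its log2 fold change was only -0.10 (SE 0.206, edgeR adjusted p = 1.00). Fech had the lowest value of all 19 rats in CSAA+CGA Rat5, 1497 CPM, and its second highest in CSAA+CGA Rat4, 3326 CPM.

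**Figure D3:**
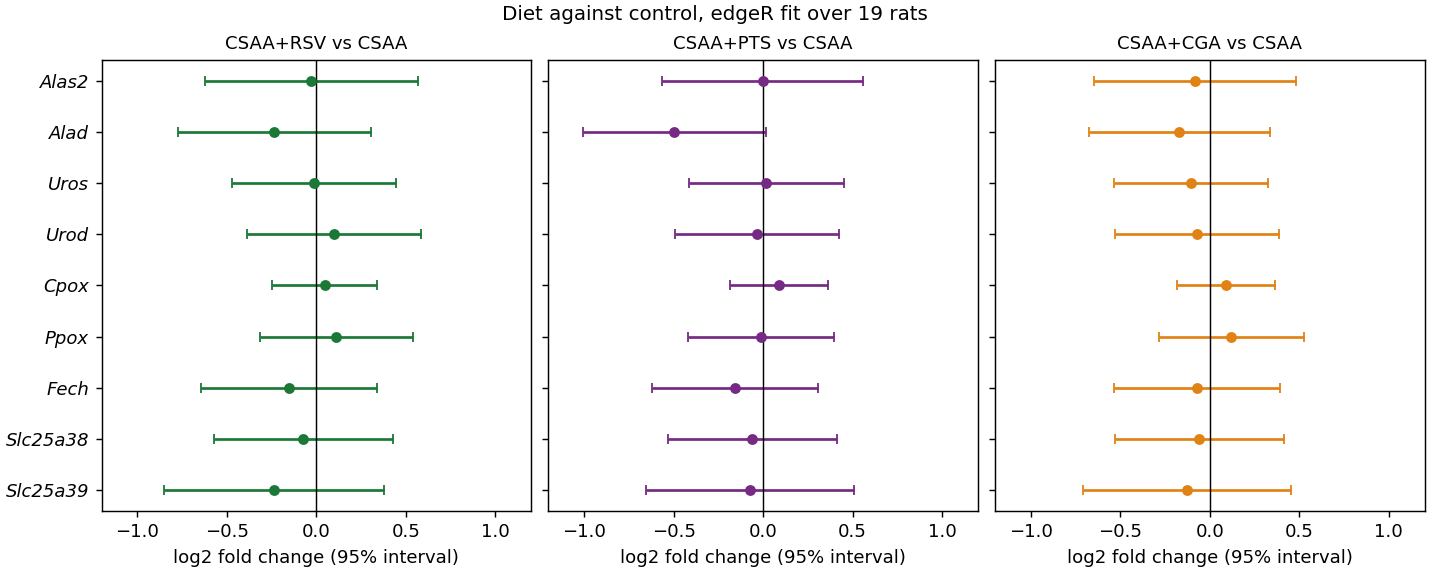
Log2 fold change of each member against CSAA with its 95% interval from the edgeR fit over 19 rats, for CSAA+RSV, CSAA+PTS and CSAA+CGA. All intervals include 0, and the interval of Alad with CSAA+PTS, -1.01 to 0.01, reaches 0 only at its upper end.

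Pterostilbene is a close analogue of resveratrol that carries methoxy groups in place of hydroxyl groups on a ring, and both were fed at equal molar doses for the same time. All 9 members were compared between CSAA+PTS and CSAA+RSV, with p-values adjusted over all genes tested, and none differed past the threshold (adjusted p = 1.00 for each by edgeR, 0% of all genes called; 3.06% of all genes and no member at an unadjusted p under 0.05; 0.424% of all genes and no member without overlap). The log2 difference ran from -0.26 for Alad (95% interval -0.80 to 0.28) to 0.16 for Slc25a39 (-0.45 to 0.78). For Alas2 it was 0.03 (-0.57 to 0.62) and for Fech -0.00 (-0.50 to 0.49), so these groups leave room for differences up to these bounds. Slc25a39 changed sign, to -0.13, with limma and sample weights.

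Chlorogenic acid is an ester of caffeic and quinic acid and not a stilbene. Against it, CSAA+PTS differed past the threshold in no member (0% of all genes at an adjusted p; 5.22% of all genes and no member at an unadjusted p under 0.05; 0.801% of all genes and no member without overlap), with log2 differences from -0.33 for Alad (95% interval -0.83 to 0.18, edgeR adjusted p = 0.833) to 0.12 for Uros. CSAA+RSV likewise differed from CSAA+CGA past the threshold in no member (0% of all genes at an adjusted p; 1.95% of all genes and no member at an unadjusted p under 0.05; 0.675% of all genes and no member without overlap), from -0.11 for Slc25a39 to 0.17 for Urod (95% interval -0.31 to 0.65). The comparisons with CSAA share the same 5 control rats.

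Set against hemoglobin, Alas2 was higher in the CSAA+PTS and CSAA+RSV rats than in the CSAA rats, in a ratio whose denominator was lower in those diets. The lower hemoglobin with CSAA+PTS was known when the ratio was chosen, so its values are a description, with no test, and are no evidence of a difference in Alas2. Counts of Alas2 per 100 counts of the hemoglobin genes, which need no scaling, were 10.5, 10.7, 12.0, 14.2 and 13.9 in CSAA Rat1 to Rat5 and 19.8, 15.8, 43.5, 43.9 and 36.8 in CSAA+PTS Rat1 to Rat5. The CSAA+PTS mean of the log2 ratio was higher by 1.27, or 2.42-fold. The share of all genes that are higher on this ratio was not counted, so the rise cannot be called particular to Alas2. With CSAA+RSV the ratio was 16.4, 20.2, 48.8 and 16.1 in Rat1, Rat2, Rat3 and Rat5. The log2 difference of CSAA+RSV from CSAA was 0.90, or 1.86-fold, and 0.53 without CSAA+RSV Rat3. With CSAA+CGA the ratio was 12.8, 8.23, 14.9, 12.7 and 30.3, which overlapped that of CSAA, and the log2 difference was 0.24 (-0.0325 without Rat5, the rat at 30.3).

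The contrast lay in the hemoglobin genes. Their share of all counts was 10.8 to 15.8% with CSAA, 3.78 to 11.5% with CSAA+RSV, 4.12 to 11.2% with CSAA+PTS and 5.93 to 16.2% with CSAA+CGA, while the Alas2 levels of all diets overlapped. In the CSAA+PTS comparison all 7 hemoglobin genes tested were below 0 with an unadjusted edgeR p under 0.05 (4.54% of all genes were lower at that threshold). Their median log2 fold change was -1.13, against -0.03 for the heme synthesis genes. None of the 7 passed after adjustment in this edgeR fit, which called 0% of all genes. The study, using DESeq2 with diet alone in the model, reported Hba-a1 as differentially expressed between these diets. With the 21 other red cell markers as denominator in place of hemoglobin, the log2 difference of Alas2 from CSAA was 0.16 for CSAA+PTS, 0.0711 for CSAA+RSV and -0.0296 for CSAA+CGA. The summed red cell markers ranged from 16883 to 26814 CPM with CSAA and from 13977 to 25992 CPM with CSAA+PTS, and 16 of the 21 were below 0 (median -0.20), 3 of them lower at an unadjusted edgeR p under 0.05, where 47.2% and 4.54% of all genes were. The part of red cell content in the hemoglobin and Alad values was not tested, but with the red cell marker level as a covariate the log2 fold change of Alad was -0.31 (edgeR adjusted p = 0.364) and Cpox was the member under the unadjusted threshold, at 0.26 (adjusted p = 0.267), 1 of 9 where 15.3% of all genes were.

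**Figure D4:**
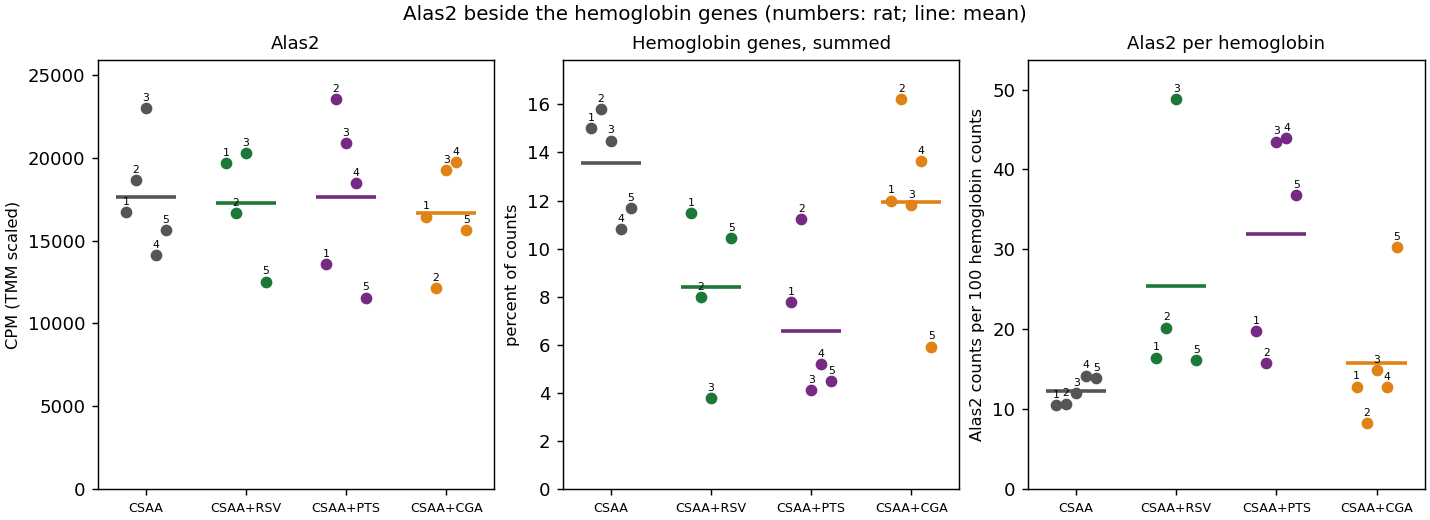
Alas2 in TMM-scaled CPM, the hemoglobin genes as percent of counts, and Alas2 counts per 100 hemoglobin counts, by diet, with axes from 0, rat numbers above the points and a line at the mean. Alas2 overlaps between diets, while its ratio to hemoglobin is 10.5 to 14.2 with CSAA and 15.8 to 43.9 with CSAA+PTS.

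A second ratio without scaling set each member against Alas2 within a rat. Alad counts per 100 Alas2 counts were 0.132, 0.142, 0.126, 0.117 and 0.140 in CSAA Rat1 to Rat5 and 0.0705, 0.116, 0.0976, 0.0881 and 0.0757 in CSAA+PTS Rat1 to Rat5. The groups did not overlap, but the highest CSAA+PTS rat, Rat2, lay just under the lowest CSAA rat, Rat4. Among all 16733 other genes tested, 0.532% were lower with CSAA+PTS without overlap on this ratio, and Alad was the sole member (1 of 8) among them. None of the 8 was higher without overlap, where 0.287% of the genes were. This ratio was chosen after the values were seen and was not tested. With CSAA+RSV (0.1003 to 0.138) and with CSAA+CGA (0.1003 to 0.161) the ratio of Alad overlapped that of CSAA.

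The members moved together from rat to rat on the TMM scale. Over the 19 rats, log2 CPM of Alas2 correlated with each of the 8 other members, most closely with Slc25a38 (Pearson r = 0.949, Spearman rho = 0.954, permutation p = 1e-05 for each, the smallest that 100000 permutations give, 2.67e-05 for r and 8e-05 for rho adjusted over 8 relations). The weakest was Fech (r = 0.615, permutation p = 0.00487; rho = 0.619, p = 0.00562; the adjusted values are the same). All 8 passed also on values centred on the diet mean (r from 0.625 to 0.957), on values centred on the replicate number (0.527 to 0.946) and without the 2 rats farthest from the median of Alas2 (0.497 to 0.925). This was not particular to the members: of 16725 other genes, 14.5% had an r with Alas2 at or above that of Fech, and 6.89% at or above the members' median of 0.764. The summed level of other lists followed Alas2 as well, with r = 0.959 for the other genes of heme and iron-sulfur synthesis, 0.931 for heme export, breakdown and sensing, 0.930 for iron supply, 0.726 for the red cell markers and 0.696 for the platelet markers, against 0.298 for hemoglobin and -0.0431 for the T cell markers. Over all 36 pairs of members r ran from 0.389 (Uros with Fech) to 0.949, with a median of 0.742.

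The correlations with Alas2 were lower for all 8 members with total counts as the only scale, and the cause was not tested. On the TMM scale, log2 CPM of each of the 9 members was lower where the TMM factor was higher. The r with the log2 factor ran from -0.64 for Cpox to -0.91 for Slc25a38, with -0.86 for Alas2. TMM-scaled CPM is divided by this factor, so a negative r is partly built in, and no value for all genes is given beside it. The permutations shuffled rats and cannot separate this shared factor from joint movement of the genes. With total counts as the only scale, 3 of the 8 Pearson relations passed: Slc25a38 (r = 0.730), Urod (0.614) and Uros (0.571). Slc25a39 (0.518, permutation p = 0.0270, 0.0540 adjusted) just missed and Fech was at 0.0319. Of the 16725 other genes, 37.2% had an r with Alas2 at or above that of Fech on total counts. The members' median there was 0.3975, which 7.75% of the other genes reached. On the TMM scale, CSAA+PTS Rat5 was among the lowest 3 rats for all 9 members and had the highest TMM factor, 1.433. CSAA+PTS Rat2 was among the highest 3 for all 9 and had the lowest factor, 0.7499. On total counts alone these counts dropped to 3 of 9 and 2 of 9, and CSAA+PTS Rat4 was then among the highest 3 for 8 of 9 members. Without the Rat5 library of each diet, 6 of the 8 relations passed on the TMM scale, as Ppox (r = 0.503, permutation p = 0.0563) and Fech (0.480, p = 0.0701) did not. Those 4 libraries stand apart, with 25104 to 29543 genes detected against 19600 to 23632 in the other 15, and their CSAA+PTS member also holds the lowest Alad.

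**Figure D5:**
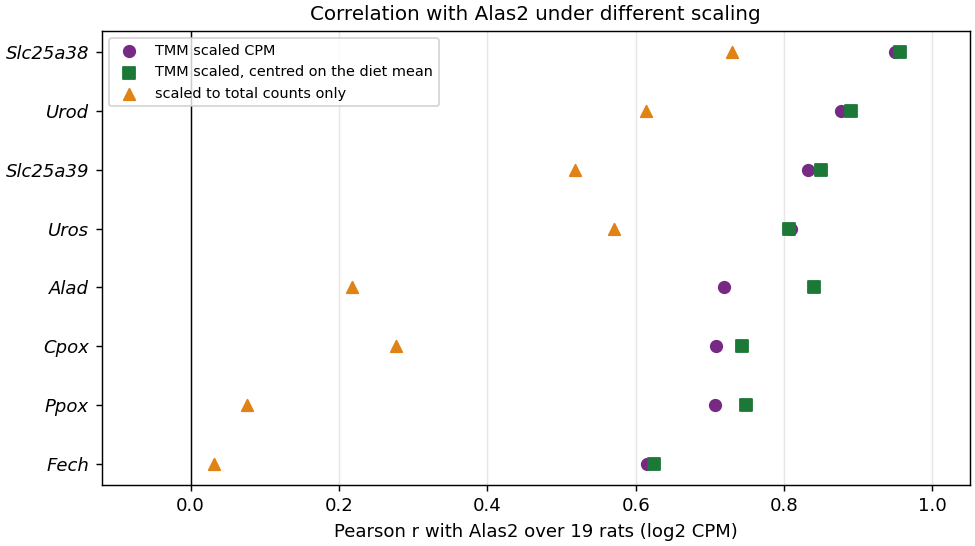
Pearson r of each member with Alas2 over 19 rats on log2 CPM with TMM scaling, with TMM scaling and values centred on the diet mean, and with total counts as the only scale. Slc25a38 is highest on every scale (0.949, 0.957 and 0.730), and Fech drops from 0.615 to 0.0319 without TMM.

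Slc25a38 followed Alas2 most tightly of the 8 members also in counts, where no scaling enters: 0.252 to 0.346 Slc25a38 counts per 100 Alas2 counts, a 1.37-fold range over the 19 rats. Urod had 0.799 to 1.31 and Uros 0.0261 to 0.0432 counts per 100 Alas2 counts. Slc25a39 ranged 1.95-fold, from 9.80 in CSAA+RSV Rat3 to 19.1 in CSAA+PTS Rat2. Fech ranged 2.24-fold, and both its lowest and its highest ratio came from the CSAA+CGA diet (9.57 in Rat5 and 21.5 in Rat2). Alad was the loosest, with a 2.28-fold range.

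For each member, the share of the variance of log2 CPM between rats of a diet was larger than that between diets. Over all 19 rats, differences between diets included, the highest rat exceeded the lowest by 1.77-fold for Cpox and by 3.32-fold for Alad on TMM-scaled CPM. On total counts alone the range was 1.61-fold for Slc25a38 to 2.21-fold for Alad. Diet accounted for 1.07% of the variance of log2 CPM for Alas2, 1.09% for Slc25a38 and 5.46% or less for each member but Alad, at 27.0%, where the median of all genes was 12.2%. Replicate number accounted for 17.6% (Alad) to 49.7% (Urod), beside a median of 35.5% for all genes. These shares were not adjusted for the number of groups, which is larger for replicate number than for diet, so the diet and replicate shares are not compared.

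Among the genes whose log2 CPM was most like that of Alas2 over the 19 rats were Ube2s (r = 0.964), Slc16a10 (0.962), Bnip3l (0.958) and Adipor1 (0.956). Bnip3l is also one of the red cell markers above. Those most like the mean of the 9 members were RGD1310507 (r = 0.979), Sqstm1 (0.975), Fam220a (0.974), Tk1 (0.967) and Hagh (0.966). All these values share the TMM factor of each library.

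Around the pathway, other heme and iron genes did not pass the test after adjustment in any diet. Of 18 other genes of heme and iron-sulfur synthesis and their transport, 8 were below 0 with CSAA+PTS against CSAA (median 0.06, 47.2% of all genes below 0), and 1 was lower at an unadjusted edgeR p under 0.05 (4.54% of all genes). That gene was Alas1, at 5.71 ± 2.21 against 12.96 ± 12.97 CPM (log2 fold change -1.19, edgeR adjusted p = 0.656), with an SD in CSAA as large as its mean. The next in p were Sucla2, a subunit of the enzyme that makes succinyl-CoA from succinate (0.26, edgeR adjusted p = 0.656), and Nfs1, the cysteine desulfurase of iron-sulfur cluster assembly (-0.23, adjusted p = 0.690), which has 2 rows in the table, of which the more abundant was used.

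Of 13 genes of heme export, breakdown and sensing, 4 were below 0 with CSAA+PTS against CSAA (median 0.04, 47.2% of all genes below 0), and 1 was lower at an unadjusted edgeR p under 0.05 (4.54% of all genes): Pgrmc2, a heme-binding membrane protein, at 2.49 ± 0.0970 against 3.54 ± 0.877 CPM (log2 fold change -0.51, edgeR adjusted p = 0.599). Hmox2, the constitutive heme oxygenase, was at -0.15 (edgeR adjusted p = 0.713) and Flvcr1, a carrier first described as a heme exporter, at 0.17 (adjusted p = 0.748). Of 9 iron supply genes tested, 6 were below 0 (median -0.12), and 1 was lower at the unadjusted threshold, beside the same shares of all genes: Ftl1, the ferritin light chain, at 851 ± 315 against 1355 ± 155 CPM (-0.67, edgeR adjusted p = 0.622). Tfrc, the transferrin receptor through which erythroid cells take up iron, was at 0.35 (edgeR adjusted p = 0.705) and Aco1, the cytosolic aconitase that also binds iron-responsive elements, at -0.49 (adjusted p = 0.722). With CSAA+RSV, Pgrmc2 (-0.40) and Ftl1 (-0.58) were again the genes of these lists that were lower under the unadjusted edgeR threshold (0.914% of all genes were), with an adjusted p = 1.00 for both and against the same control rats. With CSAA+CGA no gene of the 3 lists was.

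Markers of white cells and platelets were measured beside the members. With CSAA+PTS against CSAA, 0 of 9 T cell, 0 of 7 B cell, 0 of 8 neutrophil and 0 of 7 platelet markers tested were under an unadjusted edgeR p of 0.05, while 1 of 7 monocyte markers was lower (Cd68, log2 fold change -0.57, where 4.54% of all genes were lower) and 1 of 6 natural killer cell markers higher (Klrd1, 0.48, where 3.05% of all genes were higher), and none passed after adjustment. Their part in the values of the members was not tested.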

How the data were processed

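RNA from whole blood was sequenced with a stranded kit as single reads. The authors used Trimmomatic 0.32 for trimming and TopHat2 2.1 for alignment (rn6), and deposited raw read counts per Ensembl gene, with the gene length used in counting as a further column of a different kind. How strand was set in the counting, and which rats shared a lane, is not given in the sources used.

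A gene was dropped when at least 5 of the 19 rats had under 2 reads of it, which left 16734 genes. Diets were compared in edgeR 4.0.16 by its quasi-likelihood test (R 4.3.3), with TMM scaling, in a single fit of diet over the 19 rats, with Benjamini-Hochberg adjustment over all genes and a threshold of 0.05. DESeq2 1.42.0 and limma 3.58.1 served as alternatives. Correlations were tested by 100000 permutations. Ratios of counts within a rat are given as a description, without the exact permutation test planned for them. Each gene shown was a member, among the 3 of a list with the lowest p for CSAA+PTS against CSAA, or among the 5 genes most like Alas2 or the members' mean; the other genes named (Gypc, Cd68, Klrd1) were picked after their values were seen. Some genes that this rule names are not reported here. The members and lists were chosen with earlier results of these data known. The rats are separate animals, housed in shared cages.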

Additional observations from a re-analysis of the deposited data

Results flagged for a closer look

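Of 40 groups of 4 or 5 rats examined, 1 held a rat far from the others: Alas2 counts per 100 hemoglobin counts in CSAA+RSV Rat3 were 48.8, and the next rat of that diet was at 20.2, so the gap took 0.875 of the range of the group. That rat also had the lowest hemoglobin share of all 19 rats, 3.78% of counts, while its Alas2 level, 20278 CPM, was within the range of the other diets. Chance alone singles out about 1 in 20 such groups.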

How the results depend on the processing

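With CSAA+PTS against CSAA, edgeR called 0 genes at an adjusted p (1269 at an unadjusted p under 0.05), DESeq2 6 in the fit of 4 diets and 14 in that of 2 diets, limma 26, and edgeR with 1 rat left out 0 to 8 (8 without CSAA+PTS Rat2). None of them was a member. CSAA+PTS differed from CSAA+RSV in 1 gene (DESeq2, 4 diets), 2 (DESeq2, 2 diets) and 1 (limma), and from CSAA+CGA in 3 (DESeq2, 2 diets). The number of members lower at an unadjusted p with CSAA+PTS against CSAA was 0, and 1, Alad, without a filter, with limma, with the replicate block and with total counts alone (0 to 1 with 1 rat left out). Against CSAA+CGA it was 1 with limma and 0 to 1 with 1 rat left out. Members near 0 for CSAA+PTS against CSAA changed sign without passing a test. Alas2 and Ppox stood at 0.0116 and 0.00353 with DESeq2 size factors, at 0.0116 and 0.00334 with DESeq2 on 4 diets, at 0.00988 and 0.00277 with DESeq2 on 2 diets and at 0.0313 and 0.0225 with edgeR on 2 diets. Uros stood at -0.0134 with limma. Without the Rat5 libraries Alas2 was 0.0685, Urod 0.0544, Ppox 0.11, Slc25a38 0.0463 and Slc25a39 0.0144. With the red cell covariate Alas2 was 0.19, Urod 0.19, Ppox 0.19, Fech 0.0862, Slc25a38 0.17 and Slc25a39 0.14, and with total counts alone 0.15, 0.11, 0.13, 0.0304, 0.0722 and 0.0483. Slc25a39 was -0.13 (CSAA+PTS against CSAA+RSV) and 0.00691 (CSAA+RSV against CSAA+CGA) with limma. With 1 rat left out, the CSAA+PTS difference from CSAA ran from -0.10 to 0.15 for Alas2, -0.13 to 0.13 for Ppox, -0.20 to 0.0913 for Slc25a38, -0.24 to 0.11 for Slc25a39, -0.15 to 0.12 for Urod and -0.0927 to 0.14 for Uros. Between CSAA+RSV and CSAA+CGA it ran from -0.26 to 0.00503 for Slc25a39 and -0.00239 to 0.30 for Urod, and between CSAA+RSV and CSAA from -0.00611 to 0.24 for Ppox. The log2 difference of Alas2 per hemoglobin count from CSAA was 0.16, 0.0711 and -0.0296 (CSAA+PTS, CSAA+RSV, CSAA+CGA) over red cell markers, and 1.24 and 1.11 for CSAA+PTS and CSAA+RSV without the Rat5 libraries (a description, as the ratio itself). With 1 rat left out it ran from 1.129 to 1.499 (CSAA+PTS), 0.53 to 1.06 (CSAA+RSV) and -0.0325 to 0.44 (CSAA+CGA), and against CSAA+CGA from 0.84 to 1.31 (CSAA+PTS) and 0.29 to 0.93 (CSAA+RSV). The correlation with Alas2 without the Rat5 libraries was 0.503 for Ppox and 0.480 for Fech, and with total counts alone 0.218 for Alad, 0.277 for Cpox, 0.0758 for Ppox, 0.0319 for Fech and 0.518 for Slc25a39. Total counts alone, and both settings of the correlation, were chosen after the data were seen. Elsewhere the cause of a change was not tested. No label says what a replicate number stands for, so the rats were not treated as pairs. Deviations of rats with the same number correlated above 0.1 in 4 of 5 pairs of CSAA+PTS and CSAA (lowest 0.0230), with 4 of 5 rats closest to their own number, and the Rat5 libraries correlated in every pair of diets (0.471 to 0.772). The replicate block took the genes at an unadjusted p under 0.05 from 1269 to 2039, called 0, and put Alad at -0.54 and Uros at -0.0176. Of the single member values under other settings 377 kept their direction and side of the threshold and 54 changed sign. Counts of 120 to 246 for Uros and 127 to 263 for Ppox limit those genes.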

Other observations

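CSAA+RSV Rat4, the library left out of all comparisons, had 14758 Alas2 counts among its 861072 counts, or 17047 CPM, inside the 12540 to 20285 CPM of the other CSAA+RSV rats. Of the low members, Alad had 11 counts (12.7 CPM, below the 17.1 to 24.1 CPM of the other rats of that diet) and Ppox 9 counts (10.4 CPM, above their 4.87 to 7.93 CPM), while the other 7 members lay inside the range of the diet.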
